A study of Homo sapiens with 16 samples.

Results

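ATRA given together with both inhibitors was compared with untreated cells in OCI-AML3, an established cell line grown from an acute myeloid leukemia (AML) and assigned by the study to the lines with high RARA expression. The comparison took the 3 libraries of cells that had received ATRA (0.1 µM), GSK-LSD1 (0.1 µM), which inhibits LSD1, and MB3 (100 µM), which inhibits GCN5, for 3 h, here called the triple treatment, against the 4 libraries of untreated cells. These are 7 of the 16 libraries of the RNA-seq series, and 14631 of the 62700 genes listed were compared, namely those whose mean in the 7 libraries reached 10 normalized counts. No group received GSK-LSD1 or MB3 without a retinoid. The control is labelled untreated, and the study's methods name no solvent control. All differences below are therefore the net change of the 3 agents together with any solvent, and the share of each cannot be told apart. Levels with ATRA alone (3 libraries, 0.1 µM for 3 h) are given beside many of them, with the test of the triple treatment against ATRA for some genes. Where no ATRA level is given, the same change may have occurred with ATRA alone. All groups are cultures of a single line. Whether the libraries of a group came from separate cultures is not stated, so p-values measure the spread between these libraries, which may be technical.

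ATRA is a ligand of the retinoic acid receptors (RARs), which sit with retinoid X receptors on response elements in the DNA and exchange corepressors for coactivators when ligand binds. In myeloid cells this switches on genes of differentiation and, at the same time, the enzymes that break retinoic acid down. LSD1 (KDM1A) removes methyl groups from histone H3 within the CoREST complex, and GCN5 (KAT2A) adds acetyl groups to histones within large coactivator complexes. Stress of proteins or of the redox state acts through other factors, among them HSF1 for chaperones, NRF2 for antioxidant enzymes and ATF4 for the integrated stress response.

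The treated libraries held 16561309 to 18884805 reads on genes and the untreated libraries 11963898 to 17929315. Values are normalized counts, which are reads divided by a size factor per library, and levels are compared between groups and not between genes. Untreated replicate 4 stood apart from the other untreated libraries. Its mean distance to its own group was 53.1 (Euclidean, log2 scale, all genes compared), against 43.4 to 45.8 for the other 3 and 36.4 to 36.7 in the treated group. Calls of the genes named below that were lost without it, and list counts that moved by over 1.5 times, are given beside them. Of 9 genes that mark myeloid AML cells, all 9 passed the filter on low values, with LYZ, the lysozyme of monocytes and granulocytes, at 11102 normalized counts in untreated cells and 11369 with the triple treatment. All 7 T cell markers and all 7 erythroid markers fell under the filter on low values, as did 5 of 6 B cell markers and 7 of 8 epithelial and fibroblast markers. In RNA from whole cultures, a lower level per cell and fewer cells of a kind cannot be told apart.

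Under the triple treatment 4233 genes changed by more than 1.5-fold at an adjusted p under 0.05 (limma), which is 28.9% of the genes compared. Of these, 2030 were higher (13.9% of genes) and 2203 lower (15.1%). Genes that pass both limits are called higher or lower below, and the share of each gene list is to be read beside these shares of all genes. The balance of the directions depends on scaling. When each library was scaled to its total reads, 1398 genes were higher and 3136 lower. The median log2 fold change of all genes was then -0.154, against -0.0073 in the main fit. Large changes were mostly rises. A log2 fold change above 3 was found for 59 higher genes and below -3 for 3 lower genes, and one past 2 for 186 higher and 64 lower genes. The genes called higher took 19.2% to 20.2% of the reads in treated libraries and 10.2% to 11.6% in untreated ones, and the genes called lower took 3.55% to 3.93% and 7.07% to 7.85%. Values of the groups did not overlap for 8638 genes (59% of genes) and for 4027 of the 4233 genes called. Against ATRA alone the same libraries gave 1203 higher genes (8.22% of genes) and 1628 lower genes (11.1%), and ATRA alone against untreated cells 880 (6.01%) and 436 (2.98%). These comparisons share libraries.

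**Figure D1:**
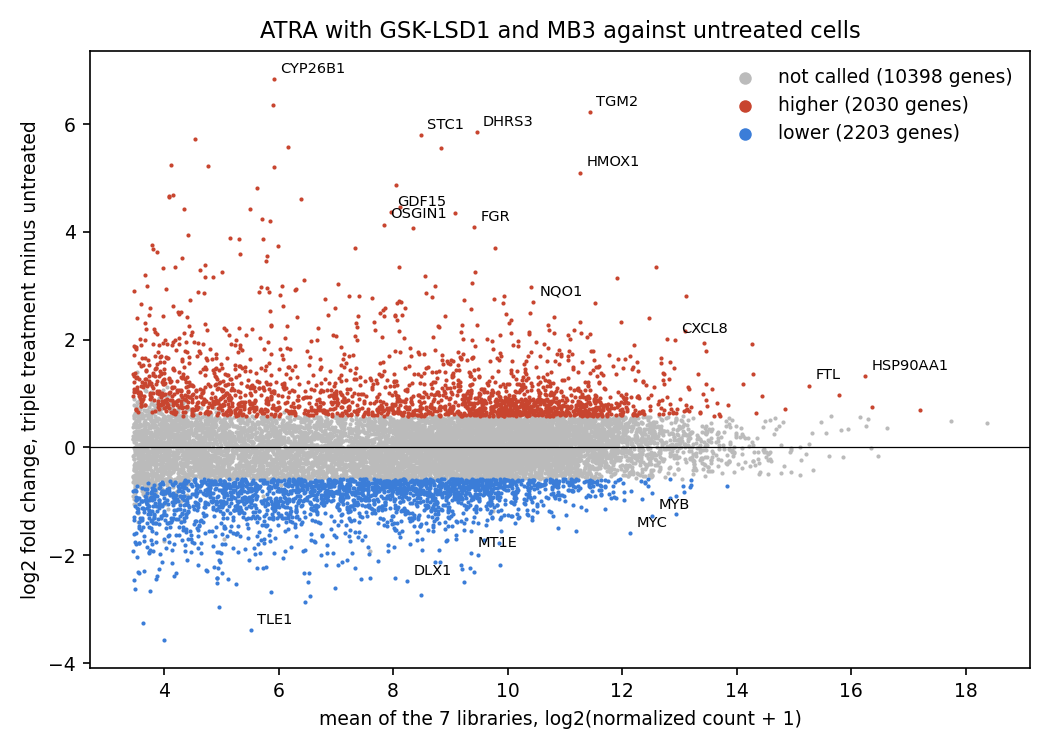
Each point is a gene of the 14631 compared, with the mean of the 7 libraries on the x axis (log2 of normalized count + 1) and the log2 fold change of the triple treatment against untreated cells on the y axis. Red points are the 2030 genes called higher, blue points the 2203 called lower, and the rises reach further from 0 than the falls, with CYP26B1, TGM2, DHRS3 and STC1 at the top and TLE1 near the bottom.

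The largest rises included known targets of retinoic acid and genes that ATRA alone moved less or not at all. Others among them did not differ from ATRA alone in the test. TGM2 (ENSG00000198959.12, chromosome 20, 38127387 to 38166578 in GENCODE 29 for GRCh38), the transglutaminase that cross-links proteins, had 6837, 5474 and 6761 normalized counts in the treated libraries and 87.9, 94.2, 73.5 and 80.9 in the untreated ones. Every treated library lay far above every untreated library, a ratio of means of 75.6 (log2 fold change 6.22 ± 0.08 SE, the standard error, adjusted p = 5.68e-22 from limma). With ATRA alone TGM2 was higher still, at 10910 normalized counts, and the triple treatment lay below it by 0.79 on the log2 scale (log2 fold change -0.79, adjusted p = 6.6e-07 from limma). DHRS3, a reductase that turns retinaldehyde back into retinol, had 1757, 1369 and 1679 normalized counts against 25.1, 18.5, 32.4 and 33.2 (log2 fold change 5.85 ± 0.14 SE, adjusted p = 3.57e-18 from limma), and 2339 with ATRA alone. HIC1, a transcriptional repressor, had 1263, 936 and 891 normalized counts against 25.1, 15.7, 17.4 and 26.6 (log2 fold change 5.55). For both genes the groups were wide apart, and HIC1 was also lower than with ATRA alone (2800 normalized counts, log2 fold change -1.46, adjusted p = 2.2e-06 from limma). The DHRS3 difference from ATRA, -0.55, did not pass the fold limit.

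STC1, LILRA5 and HMOX1 stood on the other side of ATRA. STC1, which encodes the secreted glycoprotein stanniocalcin 1, had 776, 869 and 789 normalized counts with the triple treatment against 11.2, 12.9, 16.2 and 14.4 in untreated cells (log2 fold change 5.80 ± 0.11 SE, adjusted p = 1.44e-19 from limma). Its level with ATRA alone was 269, so that the triple treatment exceeded ATRA by 1.59 on the log2 scale (adjusted p = 1.8e-09 from limma). LILRA5, a leukocyte immunoglobulin-like receptor of myeloid cells, had 154, 157 and 174 normalized counts against 2.79, 3.69, 2.49 and 1.11, and 64.8 with ATRA alone. It too was above ATRA (log2 fold change 1.31, adjusted p = 5.0e-05 from limma). HMOX1, the heme oxygenase, is described with the NRF2 targets. The 10 largest rises were taken from called genes that reached 50 normalized counts, with over 3 reads in an untreated library and groups that did not overlap. Separation of their groups was thus fixed by this choice. The remaining ones were SLC6A12 (a transporter of betaine and GABA, 135 against 3 normalized counts) and SHE (592 against 19.3). The adhesion receptor ADGRG3 (109 against 3.22) and TMEM169 (184 against 7.13) complete them. SLC6A12, SHE, ADGRG3 and TMEM169 had log2 fold changes of 4.62 to 5.21. Of these, TMEM169 also exceeded its ATRA level (log2 fold change 0.68, adjusted p = 0.025 from limma), while SLC6A12, SHE and ADGRG3 gave differences from ATRA of 0.44, 0.02 and 0.25 that did not pass the test.

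For 15 of the called genes untreated cells had at most 3 reads in each library, and fold changes against them are lower bounds, set against 3 reads per library (3.50 normalized counts on average). CYP26B1, which hydroxylates retinoic acid and so inactivates it, had 151, 120 and 143 normalized counts in the treated libraries, no read in untreated replicates 1 to 3 and 1.11 normalized counts in replicate 4, and was at least 39.4-fold higher. CYP26A1, the other main enzyme of that step, had 53.7, 46.7 and 55.7 normalized counts and no read in any untreated library, at least 14.9-fold higher. Both were below their levels with ATRA alone, 572 for CYP26B1 (log2 fold change -2.05, adjusted p = 4.3e-07 from limma) and 118 for CYP26A1 (log2 fold change -1.16, adjusted p = 5.9e-05 from limma). PTGES, a prostaglandin E synthase, was at least 38.9-fold higher, the chemokine receptor CXCR5 at least 17.1-fold and the noncoding LINC02766 at least 12.5-fold. Their levels were 136, 59.8 and 43.8 normalized counts with the triple treatment, and 127, 39.3 and 75.8 with ATRA alone. CXCR5 overlaps BCL9L on the other strand, and since the strand setting of the read counting is not stated in the sources used here, reads of such overlapping pairs cannot be told apart. The same holds for HIC1 with SMG6, TGM2 with RPRD1B, RARB with TOP2B, DNAJB1 with TECR and CASP9 with CELA2B. Other named genes are in this position too, among them NCOA3 with SULF2, IFIT2 with LIPA and SPHK1 with PRPSAP1. Further pairs are STUB1 with JMJD8, MVK with MMAB, XPC with LSM3, and PSMB8 with PSMB9, and this list is not complete.

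**Figure D2:**
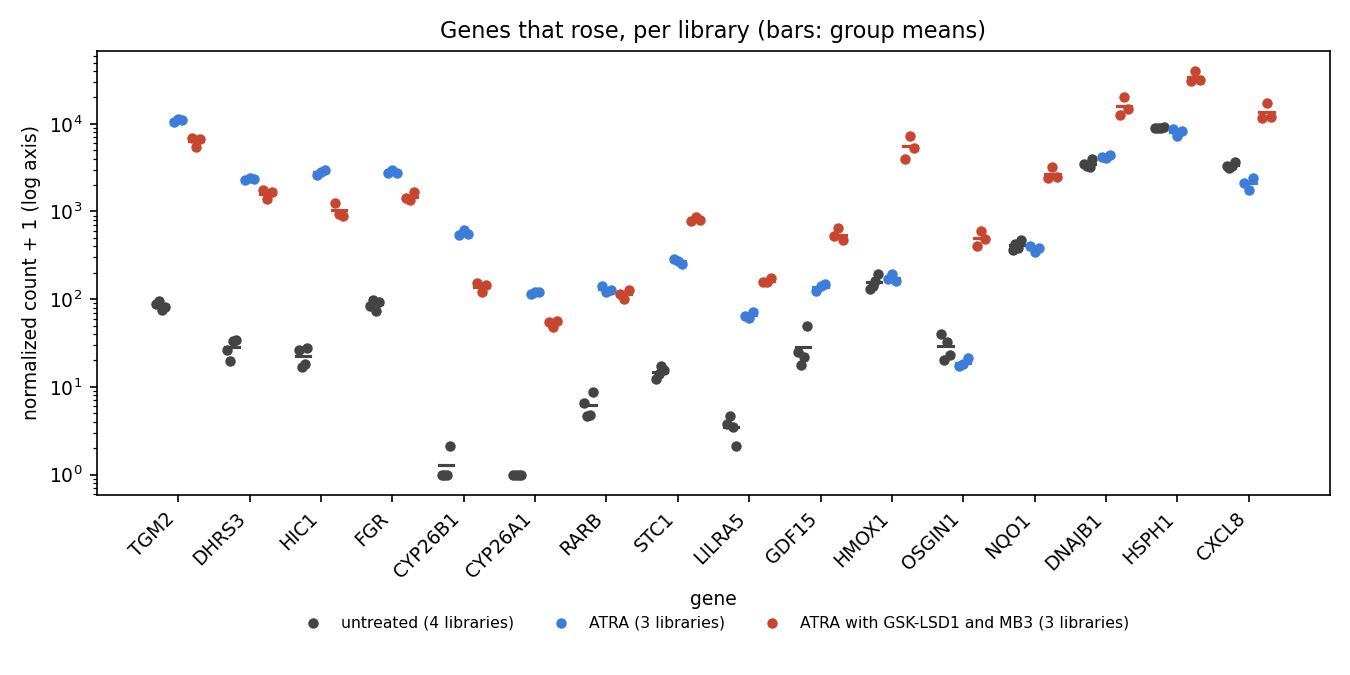
Normalized count + 1 on a log axis for 16 genes that rose, with each library as a point (untreated 4, ATRA 3, triple treatment 3) and group means as bars. TGM2, DHRS3, HIC1, FGR, CYP26B1 and CYP26A1 are highest with ATRA alone, whereas HMOX1, OSGIN1, NQO1, DNAJB1, HSPH1 and CXCL8 are raised in the triple treatment and not with ATRA alone.

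Around the receptor itself, 9 of 18 receptor and coregulator genes were called higher (50%, against 13.9% of all genes) and 0 lower, with a median log2 fold change of 0.60 against -0.0073 over all genes. The count was 7 higher without untreated replicate 4 or with a GC trend removed, and 7 higher and 1 lower under quantile normalization or scaling to total reads. RARB, the receptor isotype that retinoids induce through its own promoter, had 112, 100 and 125 normalized counts with the triple treatment against 5.58, 3.69, 3.74 and 7.76 in untreated cells, groups that did not overlap (log2 fold change 4.24 ± 0.19 SE, adjusted p = 2.13e-13 from limma), and 128 with ATRA alone. RARA had 2426, 2289 and 2424 normalized counts against 1014, 961, 1045 and 819 (log2 fold change 1.32 ± 0.09 SE, adjusted p = 2.42e-10 from limma). Its level with ATRA alone was 1332, below the triple treatment (log2 fold change 0.84, adjusted p = 1.2e-06 from limma). RARG had 114, 104 and 114 normalized counts with the triple treatment and 103, 104, 130 and 130 in untreated cells, which overlap (log2 fold change -0.07, 95% interval -0.29 to 0.15), although ATRA alone raised it to 211. Among the coregulators NCOA3, a p160 coactivator, rose from 886 to 3751 normalized counts (log2 fold change 2.10), and the ligand-dependent corepressor LCOR from 1025 to 2408 (1.26). With ATRA alone NCOA3 and LCOR had 2823 and 1557. The acetyltransferases CREBBP and EP300 rose as well (0.97 and 0.81), whereas RXRA, at -0.47, stayed within the fold limit, past which it was lower under quantile normalization (-0.66) and scaling to total reads (-0.62). In the 250 bases before the RefSeq start of the 1311 protein-coding genes called higher with a promoter in the table (80.4% of them), the DR5 retinoic acid response element, searched on both strands, was found in 2, RARB and BATF2. That is 0.153% of these promoters, against 0.0613% of the 9795 promoters of protein-coding genes compared and 0.0696% of all 27305. They are shown because they carry the element that the receptors bind, and were picked after the match was seen. RARB (GRCh38.p14, chr3:25428143-25428262, plus strand, 120 bases up to the start) and BATF2 (chr11:64990283-64990312, minus strand, 30 bases around the match, inside an annotated exon of BATF2) read as follows, with the element in capitals.
RARB: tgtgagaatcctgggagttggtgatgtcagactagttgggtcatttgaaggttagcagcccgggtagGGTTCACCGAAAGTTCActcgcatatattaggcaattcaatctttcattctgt
BATF2: aagcagAGTTCATGTGAGGGTCAggaaggg
BATF2, a basic leucine zipper factor, had 14.5 normalized counts in untreated cells, 284 with ATRA and 111 with the triple treatment (log2 fold change 2.88 against untreated cells and -1.38 against ATRA).

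Of 15 genes of retinoic acid metabolism CYP26B1, DHRS3 and CYP26A1 were called higher (20% of the list, against 13.9% of all genes), 4 lower (26.7% against 15.1%) and 8 neither. RDH13 (24.2 to 9.56 normalized counts, log2 fold change -1.32) and the reductase RDH14 (335 to 199, -0.74) were among the lower ones, as was the retinaldehyde dehydrogenase ALDH1A3 (21.3 to 10.8, -0.91), whose call was lost without treated replicate 1 (-0.71). The median of the list, 0.08, was below 0 under quantile normalization (-0.11), scaling to total reads (-0.07), a mean of at least 50 normalized counts (-0.08, 10 genes left) and with a GC trend removed (-0.18). With single libraries left out it ranged from -0.0073, without treated replicate 3, to 0.14, without untreated replicate 4. Of 24 genes known as retinoid-induced in other myeloid cells, 13 were called higher (54.2%, against 13.9% of all genes) and 3 lower (12.5% against 15.1%, and 5 genes under scaling to total reads), with a median log2 fold change of 0.96. The rises of TGM2, HIC1 and PTGES are given above. ADAMTS5, an aggrecanase, fell from 218 to 50.7 (-2.09), ID2, an inhibitor of helix-loop-helix factors, from 788 to 437 (-0.85), and SLC22A5, a carnitine transporter, from 50.1 to 31.3 (-0.65, with the call lost at -0.56 without treated replicate 3 and at -0.52 without untreated replicate 2). With ATRA alone ADAMTS5, ID2 and SLC22A5 had 92.1, 418 and 63.6 normalized counts. In the same list ATRA alone gave 12 genes higher and 2 lower against untreated cells, beside 6.01% and 2.98% of all genes. The triple treatment gave 2 higher and 7 lower against ATRA, beside 8.22% and 11.1% of all genes.

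The targeted enzymes were measured in every library. KDM1A had 1993, 1927 and 1963 normalized counts with the triple treatment and 2587, 2737, 2543 and 2597 in untreated cells. The groups did not overlap and the adjusted p was 1.78e-06 (limma), but the log2 fold change of -0.42 lay within the fold limit. KAT2A had 1265, 1115 and 1247 normalized counts against 1583, 1583, 1750 and 1793 (log2 fold change -0.47, adjusted p = 2.44e-05 from limma), again without overlap and within the limit, although under quantile normalization (-0.59) and scaling to total reads (-0.62) it was called lower. Both agents act on the protein, so these levels do not check the treatment. Of 16 genes of the LSD1-CoREST complex and its partners 2 were higher and 2 lower, 12.5% in each direction and so close to the shares of all genes (13.9% and 15.1%). SNAI1, a zinc finger repressor that recruits LSD1, rose from 161 to 525 normalized counts (log2 fold change 1.69, and 124 with ATRA alone), and GSE1 rose by 0.70 on the log2 scale, but lost its call under those scalings (0.52 and 0.55). RCOR2, a CoREST corepressor, had 7.81, 4.35 and 9.09 normalized counts against 47.4, 29.6, 34.9 and 28.8, with no overlap (log2 fold change -2.18 ± 0.27 SE, adjusted p = 8.72e-07 from limma), and 49.0 with ATRA alone. ZMYM3 fell by 1.15 on the log2 scale. The counts of this list moved to 1 higher and 4 lower under quantile normalization or scaling to total reads, and to 3 and 4 with a GC trend removed. Of 29 subunits of the GCN5 and PCAF complexes, 2 were higher (SUPT20H 0.69, ATXN7 0.61) and 1 lower (KAT14, -0.70), a share of 10.3% beside the 28.9% of all genes. Scaling to total reads made this 0 higher and 5 lower, and without untreated replicate 4 it was 1 and 2, with ATXN7 at 0.52. Among 37 other histone modifying enzymes 8 were higher (21.6% against 13.9%), led by the acetyltransferase KAT6B (1.18), the deacetylase SIRT1 (1.02) and the demethylases KDM5A (0.96) and KDM6B (0.83), and HDAC5 was lower (-0.80, and -0.43 with a GC trend removed).

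Myeloid effector genes moved in both directions. Of 39 surface and effector genes 13 were called higher (33.3%, against 13.9% of all genes) and 3 lower (7.69% against 15.1%), with a median log2 fold change of 0.13 that turned to -0.02 under scaling to total reads. ITGAM, which encodes CD11b, the surface marker the study stained, had 101, 105 and 97.8 normalized counts with the triple treatment, 76.2, 69.9 and 70.6 with ATRA alone and 51.6, 55.4, 37.4 and 54.3 in untreated cells. The triple treatment was above every untreated library (log2 fold change 1.03 ± 0.15 SE, adjusted p = 6.79e-06 from limma), and its difference from ATRA, 0.48, lay within the fold limit. KIT, the gene of the progenitor marker CD117, was covered by 0 to 2 reads per library, so no difference was detectable at this depth. FGR, a SRC-family kinase of myeloid cells, had 1428, 1339 and 1658 normalized counts against 83.7, 97.9, 72.2 and 90.8 (log2 fold change 4.08 ± 0.09 SE, adjusted p = 2.34e-18 from limma). It reached 2840 with ATRA alone, above the triple treatment (log2 fold change -0.95, adjusted p = 2.0e-07 from limma). PLAUR, the urokinase receptor, had 2820, 3846 and 3404 normalized counts against 633, 572, 565 and 708 (2.43) and 890 with ATRA alone, so here the triple treatment was the higher (1.90, adjusted p = 8.0e-11 from limma). LILRB2, an inhibitory leukocyte receptor, rose from 21.1 to 88.9 (2.03, and 78.8 with ATRA alone). TLR2 (-0.59) and TYROBP (-0.59) lay near the fold limit. Without untreated replicate 4 they stood at -0.58 and -0.43 and without treated replicate 2 at -0.58 and -0.52, so that 1 gene of the list was lower instead of 3, while scaling to total reads gave 7.

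Of 17 granule genes tested, 3 were higher (17.6%, near the 13.9% of all genes) and 5 lower (29.4% against 15.1%). CTSD, the lysosomal protease cathepsin D, rose from 1363 to 4079 normalized counts (log2 fold change 1.58, and 3996 with ATRA alone), the collagenase MMP8 rose by 1.07 from a low level of 12.5, and SRGN, the proteoglycan core of the granules, rose from 39852 to 77970 (0.97). S100A8, the calcium-binding partner of S100A9, was lower (-0.91), as were the serine protease ELANE (-0.72) and its relative AZU1 (-0.69). With untreated replicate 4 left out (ELANE -0.57), or with a GC trend removed, 2 granule genes were lower instead of 5, and without treated replicate 3 or under quantile normalization 3 were. The 9 AML markers gave 0 higher (against 13.9% of all genes) and 3 lower (33.3% against 15.1%), CEBPA (-0.66), MPO (-0.60) and SPI1 (-0.59). Without untreated replicate 4 these stood at -0.55, -0.54 and -0.53 and 0 were lower, as with a GC trend removed.

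Transcription factors of myeloid and stem cells were more often lower. Of 33 myeloid factors 12 were lower (36.4%, against 15.1% of all genes) and 4 higher (12.1% against 13.9%). MYB, a factor that keeps progenitors proliferating, had 3455, 3001 and 3362 normalized counts with the triple treatment and 7876, 8020, 8262 and 7311 in untreated cells. These groups lay far apart (log2 fold change -1.27 ± 0.07 SE, adjusted p = 2.70e-12 from limma), and ATRA alone gave 5240, between the other groups (log2 fold change of the triple treatment against ATRA -0.68, adjusted p = 3.1e-07 from limma). TAL1, a factor of early blood cells, fell from 92.0 to 39.0 (-1.22). POU2F2, the octamer-binding factor OCT2, had 51.7, 48.9 and 27.3 normalized counts against 127, 127, 122 and 78.7, lower without overlap (-1.42), and is treated below since ATRA alone raised it. On the other side stood KLF2, a zinc finger factor (169 to 798 normalized counts, log2 fold change 2.25), CEBPB, which acts in emergency granulopoiesis (885 to 2654, 1.61), EGR1, an immediate early factor (316 to 790, 1.31), and NFE2, a factor of megakaryocytes (303 to 722, 1.25). For CEBPB and NFE2 ATRA alone gave 2532 and 937, whereas EGR1 had 268 with ATRA alone.

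Stem and progenitor genes, HOX genes included, gave 10 lower and 2 higher of 25 tested (40% and 8%, against 15.1% and 13.9% of all genes), with a median log2 fold change of -0.45. HOXA11, a homeobox gene of the A cluster, had 459, 380 and 423 normalized counts against 1026, 1106, 904 and 1254 in untreated cells and fell without overlap of the groups (log2 fold change -1.34 ± 0.09 SE, adjusted p = 9.73e-11 from limma). It stood at 862 with ATRA alone. RCOR2 and POU2F2, named above, are also in this list. HOXA3 was higher from a low level (17.2 to 26.8 normalized counts, 0.64), and lost its call without untreated replicate 2 (0.58) or untreated replicate 4 (0.53). NGFR, a neurotrophin receptor, had 376, 255 and 313 normalized counts against 183, 162, 202 and 218 (log2 fold change 0.71), a far smaller rise than the 1322 with ATRA alone (triple treatment against ATRA -2.08, adjusted p = 4.9e-10 from limma). Without treated replicate 1 the NGFR value was 0.57 and not called, and under scaling to total reads 0 genes of the list were higher.

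The proliferation gene MYC fell. It had 2215, 1868 and 2268 normalized counts with the triple treatment and 6563, 5825, 6667 and 6264 in untreated cells, a ratio of untreated to treated means of 2.99 (log2 fold change -1.58 ± 0.07 SE, adjusted p = 1.24e-13 from limma). ATRA alone gave 3483, and the triple treatment lay below it (-0.72, adjusted p = 2.2e-07 from limma). Of 25 genes of the MYC network and its targets 9 were lower (36%, against 15.1% of all genes) and 2 higher (8% against 13.9%), with 6 lower when a GC trend was removed. RRP9, which takes part in the processing of ribosomal RNA, fell by 1.32 on the log2 scale and MXD3, a partner of MAX, by 1.16. MXD1, which competes with MYC for MAX, rose from 342 to 1394 normalized counts (2.02, and 370 with ATRA alone), and MLXIPL, the carbohydrate response factor ChREBP, from 510 to 2020 (1.98, and 2581 with ATRA alone). Of 28 cyclins, CDKs and inhibitors 6 were lower (21.4%, against 15.1% of all genes) and 1 higher (3.57% against 13.9%). Cyclin D1, CCND1, had 961, 834 and 867 normalized counts against 1920, 1885, 1962 and 1735 (log2 fold change -1.08 ± 0.07 SE, adjusted p = 2.11e-11 from limma), the CDK inhibitor CDKN2C fell by 0.89 and the repressor E2F7 by 0.82 on the log2 scale, and RB1, the retinoblastoma protein, rose by 0.99. Of 31 replication and mitosis genes 0 were higher, against 13.9% of all genes, and 4 were lower (12.9%, near the 15.1% of all genes) at -0.68 to -0.61, among them the licensing factor CDT1, the reductase subunit RRM2 and the mitotic kinase PLK1. That count was 8 under quantile normalization, 2 without untreated replicate 4 (PLK1 -0.58), and 1 without treated replicate 2 (PLK1 -0.51, RRM2 -0.57) or with a GC trend removed.

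Targets of NRF2, the factor that turns on antioxidant enzymes, formed one of the groups in which most genes rose. Of 34 tested, 20 were called higher (58.8%, against 13.9% of all genes) and 1 lower. The lower gene was TRIM16L, at 14.8 against 23.9 normalized counts (log2 fold change -0.75, and -0.35 and not called without treated replicate 2). With a GC trend removed 0 genes of the list were lower. The median log2 fold change was 0.77. HMOX1 (ENSG00000100292.18, chromosome 22, 35380361 to 35394214), the enzyme that degrades heme, had 4011, 7287 and 5284 normalized counts with the triple treatment against 131, 140, 162 and 195 in untreated cells and 167, 195 and 161 with ATRA alone. The untreated and ATRA libraries lay in the same range and the treated ones 35.2-fold above untreated cells by their means (log2 fold change 5.10 ± 0.16 SE, adjusted p = 6.81e-16 from limma, and 4.94 against ATRA). OSGIN1, an oxidative stress response gene that inhibits growth, had 404, 601 and 485 normalized counts against 39.0, 19.4, 31.1 and 22.2 (log2 fold change 4.14 ± 0.21 SE, adjusted p = 1.30e-12 from limma), and 17.9 with ATRA alone. NQO1, a quinone reductase, had 2387, 3224 and 2470 normalized counts against 367, 425, 384 and 476 (log2 fold change 2.70 ± 0.10 SE, adjusted p = 1.45e-14 from limma), and 377 with ATRA alone. For these 3 genes no treated library overlapped an untreated one. AKR1C1, an aldo-keto reductase with close paralogs among which reads may be shared, rose from 46.6 to 332 (2.81, and 94.8 with ATRA alone). FTL, the ferritin light chain, rose from 26017 to 57298 normalized counts (1.15), and SLC7A11, the cystine transporter, from 258 to 795 (1.61). Members that did not pass the limits include KEAP1, the inhibitor of NRF2 (-0.06), and the thioredoxin TXN (-0.13). With ATRA alone, 2 genes of the list were higher and 0 lower against untreated cells, beside 6.01% and 2.98% of all genes. With the triple treatment against ATRA, 20 were higher and 2 lower, beside 8.22% and 11.1% of all genes.

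Antioxidant response elements were read in the promoters of these genes with the motif TGACNNNGC on both strands of the 250 bases before the start. It was present in 4 of the 26 promoters of the list in the table (15.4%), in 12.2% of the promoters of protein-coding genes compared and in 11% of all promoters. The motif is thus common, and its presence is a description only. The promoters of TXNRD1 (GRCh38.p14, chr12:104215659-104215778, plus strand, 120 bases up to the start) and GCLM (chr1:93909445-93909474, minus strand, 30 bases around the match, inside an annotated exon of GCLM, on whose other strand the motif lies) show it in capitals, in genes picked after the match was seen.
TXNRD1: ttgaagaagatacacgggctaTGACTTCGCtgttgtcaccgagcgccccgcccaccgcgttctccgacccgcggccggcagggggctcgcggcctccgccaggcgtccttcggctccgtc
GCLM: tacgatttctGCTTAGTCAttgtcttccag
TXNRD1, the cytosolic thioredoxin reductase, rose from 3919 to 11785 normalized counts (log2 fold change 1.58), with 3709 under ATRA alone, and GCLM, the modifier subunit of the enzyme that starts glutathione synthesis, from 1021 to 4458 (2.12), with 863 under ATRA alone.

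Cytosolic chaperones and their partners formed, in the main fit, the list with the largest share of higher genes among described lists with several genes tested. Of 29 tested, 22 were higher (75.9%, against 13.9% of all genes) and 2 lower, with a median log2 fold change of 0.76. Under quantile normalization 14 were higher and under scaling to total reads 15. The share was then below that of the NRF2 targets (20 and 18 of 34). It was also below it with a GC trend removed (17 of 29 against 20 of 33). DNAJB1, a cochaperone of HSP70, had 12503, 20236 and 14924 normalized counts with the triple treatment against 3438, 3336, 3252 and 3956 (log2 fold change 2.16 ± 0.12 SE, adjusted p = 5.67e-12 from limma), and 4232 with ATRA alone. HSPH1, the HSP110 chaperone, had 31101, 40106 and 31447 normalized counts against 8989, 8953, 8857 and 9190 (log2 fold change 1.92 ± 0.08 SE, adjusted p = 4.90e-14 from limma), and 8118 with ATRA alone. The groups were well separated in both genes. DNAJA4, another cochaperone of the same family, rose from 1128 to 4979 (2.11) and BAG3, which links HSP70 to autophagy, from 549 to 2369 (2.10). HSP90AA1, the inducible HSP90, was among the 5 largest rises in normalized counts of all genes, from 47029 to 118010 (log2 fold change 1.32), and so was HSPA8, the constitutive HSC70, from 64615 to 109808 (0.76, and 0.30 and not called under quantile normalization). HSPA1A and HSPA1B, a near-identical pair, had 0 to 2 reads in each of the 7 libraries, and reads of such a pair can be lost or split in counting. STUB1, the chaperone-associated ubiquitin ligase CHIP, and the cochaperone DNAJB2 were the lower genes, at -0.98 and -0.85, and 0 were lower with a GC trend removed. HSF1, the factor that drives these genes, had a log2 fold change of -0.24, within the limit. In this list ATRA alone gave 0 genes higher and 2 lower, beside 6.01% and 2.98% of all genes.

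The heat shock element, an alternation of GAA and TTC searched on both strands as 3 such blocks that alternate and lie 2 bases apart, was found in the 250 bases before the start of 5 of 24 chaperone genes with a promoter in the table (20.8%). All promoters held it at 0.439% and those of protein-coding genes compared at 0.265%. Shown are HSPA6 (GRCh38.p14, chr1:161524420-161524539, plus strand, 120 bases up to the start, motif on the other strand) and CHORDC1 (chr11:90223083-90223112, minus strand, 30 bases inside an annotated exon of CHORDC1, with 3 overlapping matches), picked after the match was seen, with the motif in capitals.
HSPA6: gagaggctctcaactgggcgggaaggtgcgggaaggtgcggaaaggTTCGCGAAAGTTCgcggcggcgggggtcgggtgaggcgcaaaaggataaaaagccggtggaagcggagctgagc
CHORDC1: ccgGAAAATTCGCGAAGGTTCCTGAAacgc
HSPA6, the strictly inducible HSP70, had 273, 448 and 278 normalized counts against 139, 108, 112 and 143 (log2 fold change 1.37 ± 0.17 SE, adjusted p = 8.67e-07 from limma), and reads of this gene may be shared with a close copy. CHORDC1, a cochaperone of HSP90, rose from 2039 to 5840 normalized counts (1.51).

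Treated replicate 2 was the highest of the 3 treated libraries in most of these stress genes. It was the highest for 22 of the 22 chaperone genes called higher, for 17 of the 20 NRF2 targets and for 9 of the 13 inflammatory genes, whereas over all 2030 genes called higher it was so for 51.5%. Lists described below showed this as well, with 7 of 8 endoplasmic reticulum stress genes, 9 of 10 BCL2 family genes and 5 of 5 cholesterol genes. Among the retinoid-induced genes it was so for 2 of 13. In TGM2, DHRS3 and CYP26B1 it was the lowest. Without it, 18 of the 29 chaperone genes and 20 of the 34 NRF2 targets were higher. Its part in these results was not tested further.

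Genes of the endoplasmic reticulum stress response gave 8 higher and 1 lower of 25 (32% and 4%, against 13.9% and 15.1% of all genes), with a median log2 fold change of 0.47, or 0.31 with a GC trend removed. HERPUD1, part of the degradation machinery, had 6753, 7876 and 7660 normalized counts against 2175, 2222, 2277 and 2509, above in every library (log2 fold change 1.69 ± 0.07 SE, adjusted p = 5.37e-14 from limma), and 4875 with ATRA alone. EDEM1, a mannosidase-like protein that sorts misfolded glycoproteins, reached 10782 from 4512 (1.27), as with ATRA alone (11029). DNAJC3 (1.21) and the factor XBP1 (1.12) rose beyond their ATRA levels of 2460 and 4872 normalized counts, to 4567 and 8718. SDF2L1 was lower (-0.76, and -0.57 and not called without untreated replicate 4). With a GC trend removed 0 genes of this list were lower. Among 37 ATF4 and amino acid response genes 9 were higher and 1 lower, that is 24.3% higher beside 13.9% of all genes, and 6 higher and 4 lower under scaling to total reads. GDF15, a stress-induced cytokine, had 522, 640 and 474 normalized counts against 23.7, 16.6, 21.2 and 48.7 in untreated cells and 136 with ATRA alone. The lowest treated library was well above the highest untreated one (log2 fold change 4.36 ± 0.24 SE, adjusted p = 3.24e-12 from limma). DDIT4, an inhibitor of mTORC1, rose from 175 to 1165 (2.73, and 1023 with ATRA alone) and DDIT3, the factor CHOP, from 173 to 580 (1.74, and 298 with ATRA alone). ATF4 itself, at -0.14, and TRIB3 and CHAC1, at -0.27 and -0.15, were not called. The glutamine transporter SLC1A5 was lower (-0.63, and -0.58 and not called without untreated replicate 4). With a GC trend removed 0 of the ATF4 and amino acid response genes were lower.

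Immediate early and inflammatory genes rose in part. Of 33 immediate early and AP-1 genes 17 were higher (51.5%, against 13.9% of all genes, and 11 genes under scaling to total reads) and 5 lower (15.2%, the share of all genes being 15.1%). IER3 had 32.2, 25.0 and 26.1 normalized counts against 4.18, 3.69, 0 and 0 (log2 fold change 3.69), and MAFF, a small MAF factor, had 253, 268 and 259 against 29.3, 52.6, 16.2 and 35.5 (3.04). EGR3, a relative of EGR1, rose from 16.2 to 59.9 (1.92). In the other direction DUSP2, a phosphatase that switches off MAP kinases, had 21.5, 23.9 and 17 normalized counts against 145, 128, 122 and 193 (log2 fold change -2.75 ± 0.22 SE, adjusted p = 1.19e-09 from limma), far below every untreated library. The AP-1 subunit FOSL2 fell from 3274 to 1110 (-1.56, and 1043 with ATRA alone), and the nuclear receptor NR4A2 from 48.6 to 16 (-1.54). Of 29 NF-kappaB and inflammatory genes 13 were higher (44.8%, against 13.9% of all genes) and 0 lower. Their median log2 fold change of 0.22 moved to 0.14 without untreated replicate 2, 0.07 under scaling to total reads and 0.64 with a GC trend removed. CXCL8, the chemokine interleukin 8, had 11501, 17346 and 12076 normalized counts with the triple treatment and 3311, 3166, 3298 and 3632 in untreated cells (log2 fold change 2.0 ± 0.13 SE, adjusted p = 8.77e-11 from limma). The chemokines CCL2 and CCL20 rose from 163 to 1342 (3.05) and from 4.21 to 53.4 (3.38), and the adhesion molecule ICAM1 from 56.5 to 313 (2.45, and 264 with ATRA alone). NFKB1 (-0.16) and NFKBIA (-0.36) were not called.

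Interferon response genes went mainly the other way. Of 33, 13 were lower (39.4%, against 15.1% of all genes) and 3 higher (9.09% against 13.9%), with a median of -0.25 that was -0.16 without untreated replicate 4 or treated replicate 2 and -0.40 under scaling to total reads. IFIT1, an antiviral protein that binds foreign RNA caps, had 7.81, 7.61 and 12.5 normalized counts with the triple treatment against 46.0, 58.2, 56.0 and 70.9 in untreated cells, with no overlap (log2 fold change -2.53 ± 0.24 SE, adjusted p = 1.98e-08 from limma), and 20.4 with ATRA alone. IFIT2 fell from 37.3 to 12.3 (-1.56) and USP18, which removes ISG15 from proteins, from 77.2 to 31.4 (-1.30). IRF1, an interferon regulatory factor, rose from 469 to 1481 (1.66), below its level with ATRA alone (2156), and IRF9 (1.01) and IFIT5 rose as well, the latter at 0.59 near the fold limit and lost without treated replicate 1 (0.54) or 3 (0.56) and without untreated replicate 1 (0.55) or 2 (0.58). Without treated replicate 2 the number of lower genes was 8. In the HLA and antigen presentation list 0 of 16 were higher and 4 lower (25%, against 15.1% of all genes, and 3 genes without untreated replicate 4), among them the immunoproteasome subunits PSMB8 (663 to 333 normalized counts, -0.97) and PSMB9 (216 to 110, -0.93) and the peptide transporter TAP1 (136 to 72.7, -0.88). Of 31 proteasome subunits, 2 were higher (6.45% against 13.9%), PSMA2 (1.01) among them, and 0 were lower.

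Metallothioneins, small cysteine-rich proteins that bind zinc, fell together. All 7 members of the family with enough reads were lower, at log2 fold changes of -1.95 to -0.83. In the list with zinc response genes, 7 of 10 tested were lower (70%, against 15.1% of all genes). The 2 higher genes (20% against 13.9%) were MTF1, the zinc-sensing factor that drives metallothioneins, and the zinc importer SLC39A10 (0.76 and 0.60). SLC39A10 was not called without untreated replicate 4 (0.54) or treated replicate 2 (0.58). MT1E had 247, 230 and 251 normalized counts against 784, 857, 841 and 1405 in untreated cells (log2 fold change -1.95 ± 0.15 SE, adjusted p = 1.02e-09 from limma), and 741 with ATRA alone. MT1G had 365, 263 and 297 against 802, 830, 836 and 1188 (log2 fold change -1.56 ± 0.14 SE, adjusted p = 7.82e-09 from limma), and 739 with ATRA alone. Untreated replicate 4 was the highest library for both, and the other 3 untreated libraries alone did not overlap with the treated ones either. MT1M fell from 16.8 to 4.52 (-1.74). The genes of this family are near copies of each other, so that reads may be divided among them.

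Genes of cell death and of the p53 response rose in part. Of 24 genes of the BCL2 family and apoptosis inhibitors, 10 were higher (41.7%, against 13.9% of all genes) and 1 lower (4.17% against 15.1%), and the higher genes act on both sides of cell death. BIK, which promotes it, rose from 27.4 to 148 normalized counts (log2 fold change 2.42, and 234 with ATRA alone), and CASP9, the initiator caspase, from 125 to 402 (1.69, and 335 with ATRA alone). BCL2A1, which opposes it, rose from 72.8 to 288 (1.99, and 126 with ATRA alone). PMAIP1, the BH3 protein NOXA and a p53 target, had 1046, 1306 and 963 normalized counts against 350, 324, 311 and 386 (log2 fold change 1.68 ± 0.11 SE, adjusted p = 8.90e-11 from limma), and 374 with ATRA alone. BOK was lower from a level of 16.3 (-1.12), and not called without treated replicate 1 (-0.96) or untreated replicate 1 (-0.83). Of 24 p53 targets, 9 were higher (37.5% against 13.9%) and 2 lower (8.33% against 15.1%), with TIGAR (1.43), TP53I3 (1.28) and MDM2 (1.17) behind PMAIP1 and with PHLDA3 (-0.88) and the repair gene XPC (-0.64) lower. Without treated replicate 2 XPC stood at -0.56 and was not called, and with a GC trend removed 0 genes of the list were lower. CDKN1A, a main p53 target, was not called (0.33).

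Of 27 genes of cholesterol synthesis 5 were higher (18.5%, against 13.9% of all genes), STARD4 (0.81), HSD17B7 (0.81) and INSIG1 (0.80) among them, and 2 lower (7.41% against 15.1%), the mevalonate kinase MVK (-1.01) included. This count moved to 3 higher under quantile normalization, to 3 higher and 5 lower under scaling to total reads, to 3 higher without untreated replicate 1 or treated replicate 2, to 1 lower without untreated replicate 4 or treated replicate 1, and to 1 higher and 1 lower with a GC trend removed. Of 11 LXR and lipid efflux genes 0 were called in either direction, against 28.9% of all genes. TGF-beta, WNT and Notch genes gave 6 higher and 6 lower of 28 (21.4% each, against 13.9% and 15.1% of all genes), with ID1 rising from 540 to 2354 normalized counts (2.15, and 2109 with ATRA alone), SKIL by 1.74 and SMAD3 by 0.67 on the log2 scale, and FZD2 (-1.43), WNT10B (-1.08) and JAG1 (-0.98) lower. Without untreated replicate 4, 3 of these genes were higher, and 2 under scaling to total reads.

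**Figure D3:**
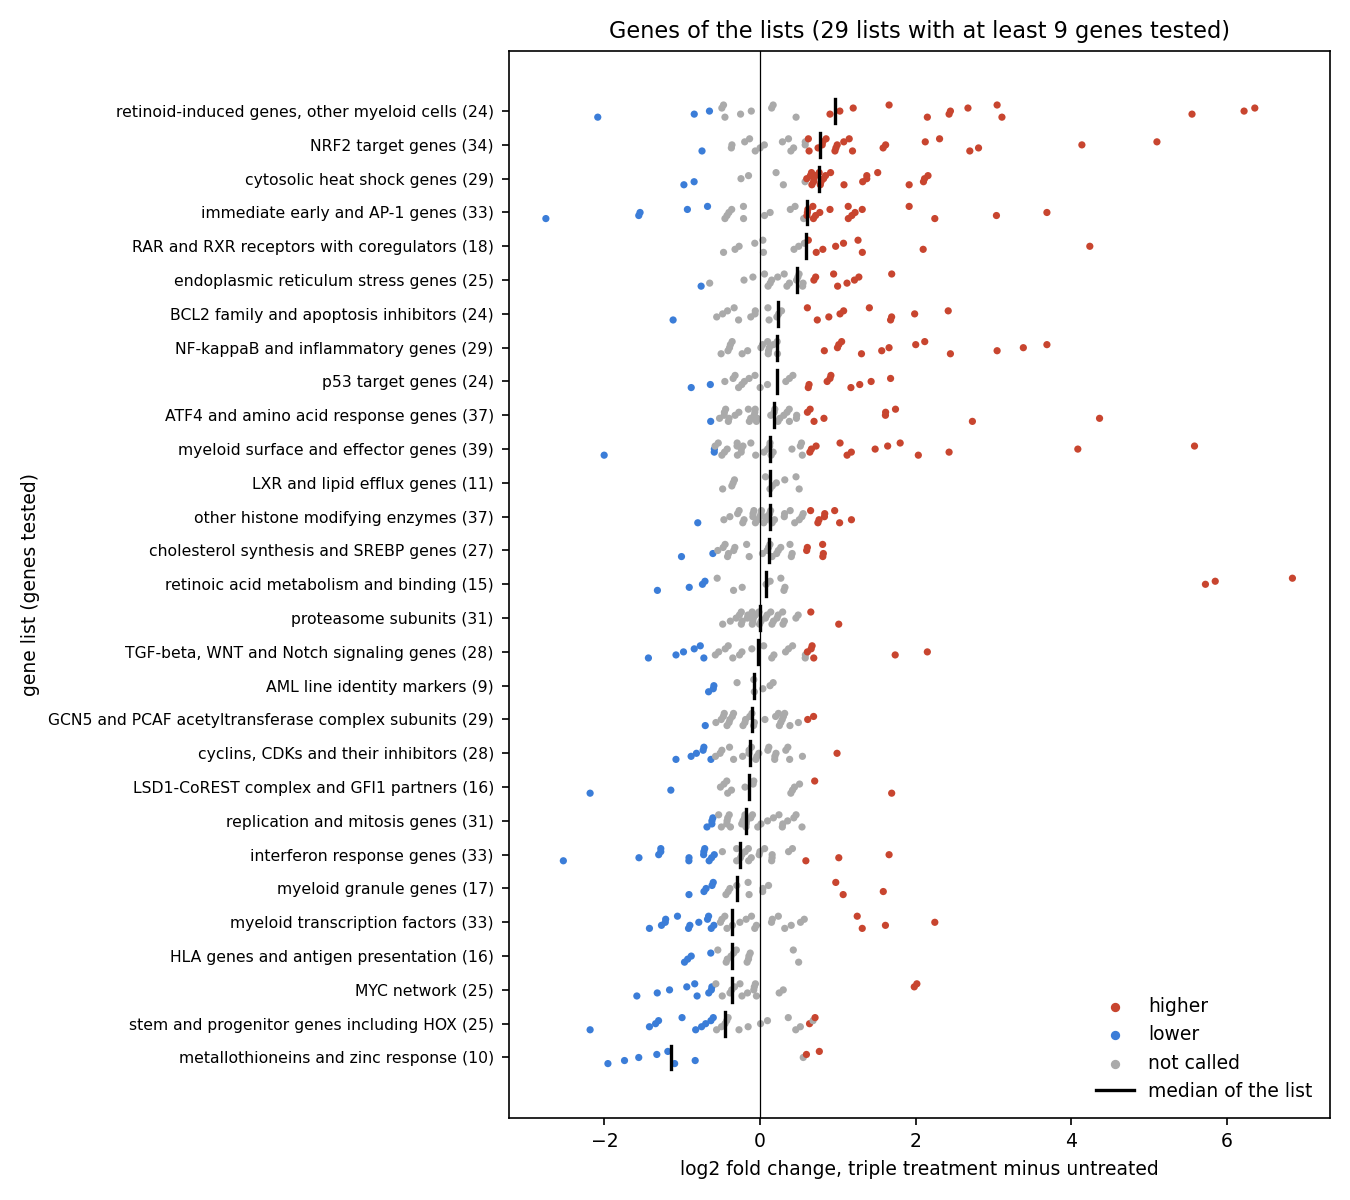
Log2 fold changes of the triple treatment against untreated cells (x axis) for the tested genes of 29 lists (y axis, number tested in parentheses), ordered by their medians, which are drawn as black bars. Red points were called higher, blue points lower and grey points neither. The retinoid-induced, NRF2 and heat shock lists lie at the top with medians of 0.96, 0.77 and 0.76, and the metallothioneins at the bottom with -1.14.

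Among genes that reached 50 normalized counts in untreated cells and were picked for groups that did not overlap, the 10 largest falls lay between -3.39 and -2.49. TLE1, a Groucho corepressor, had 4.88, 7.61 and 5.68 normalized counts with the triple treatment against 53, 66.5, 94.7 and 80.9 in untreated cells, a drop in every library (log2 fold change -3.39 ± 0.28 SE, adjusted p = 3.15e-09 from limma), and 19.5 with ATRA alone. DLX1, a homeobox gene, had 84.9, 71.7 and 93.2 against 474, 460, 456 and 485 (-2.49), and 205 with ATRA alone. Both genes were lower than with ATRA (log2 fold changes -1.54 and -1.30, adjusted p = 3.1e-04 and 1.8e-08 from limma). ADAMTS1, a secreted metalloprotease, had 188, 173 and 136 normalized counts against 964, 898, 976 and 879 (-2.49). Here ATRA alone gave nearly the same level, 192, and the difference of -0.22 from ATRA did not pass the test (adjusted p = 0.14 from limma). PAQR7, a membrane progestin receptor, was the reverse case, with 22.5, 22.8 and 11.4 normalized counts under the triple treatment, 113, 139, 146 and 155 in untreated cells and 101 with ATRA alone (log2 fold change -2.86 against untreated cells, -2.42 against ATRA). KLHL30 followed the same pattern (31.8, 195 and 139 in the triple treatment, untreated cells and ATRA). DUSP2 and IFIT1 have been described, and DDN and B3GNT7 were also among the 10 (-2.68 and -2.49). The largest falls in normalized counts were those of the receptor kinase GRK2 (17572 to 10637), the cytoskeletal linker PLEC (10449 to 4424), the growth factor CLEC11A (9857 to 5186), the factor MEF2D (10650 to 6013) and MYB, of which GRK2 (-0.35) and CLEC11A (-0.27) were not called with a GC trend removed. With ATRA alone GRK2, PLEC, CLEC11A and MEF2D had 14057, 7628, 8163 and 6206 normalized counts.

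**Figure D4:**
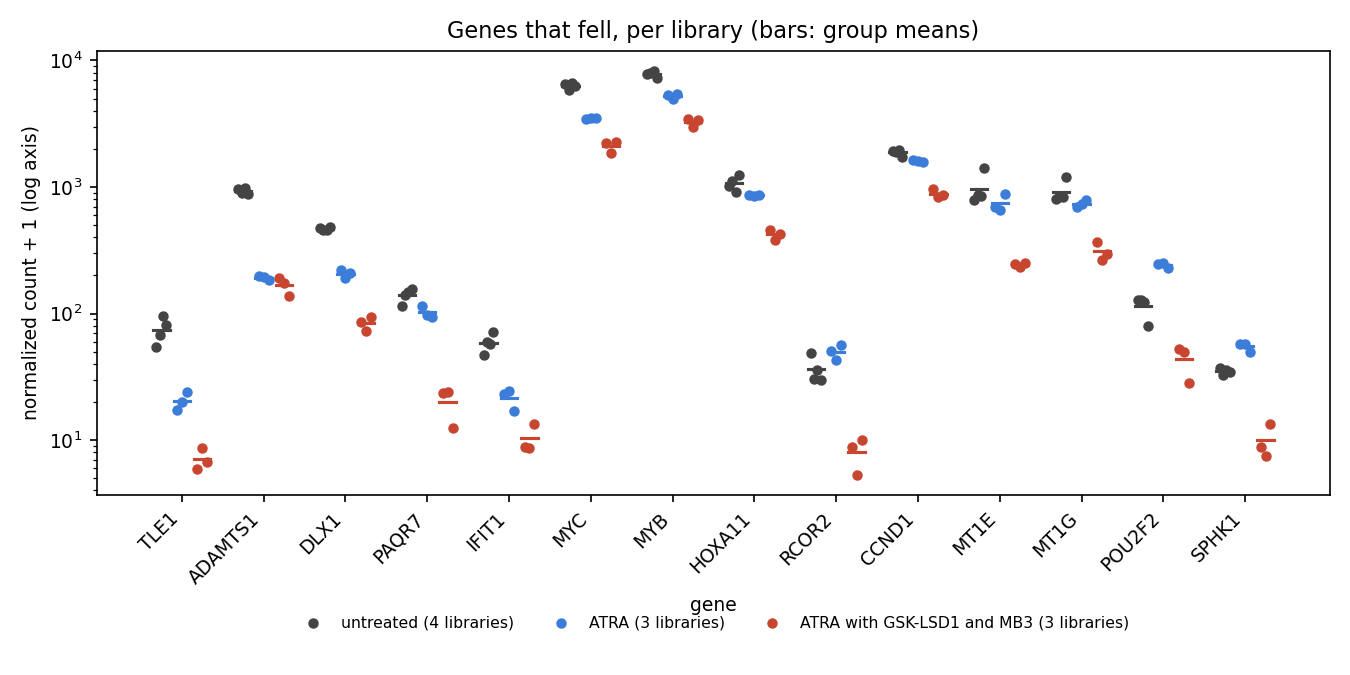
Normalized count + 1 on a log axis for 14 genes that fell, with each library as a point and group means as bars. In TLE1, DLX1, MYC and MYB the ATRA libraries lie between untreated cells and the triple treatment, in ADAMTS1 they lie with the triple treatment, and in POU2F2 and SPHK1 they lie above untreated cells.

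Some genes moved against their direction with ATRA alone. Of the genes that ATRA alone lowered, CXCL8 (3352 normalized counts in untreated cells, 2088 with ATRA, 13641 with the triple treatment), the sphingosine phosphate receptor S1PR3 (996, 575 and 3249) and HSPA6 (126, 77.5 and 333) rose most with the triple treatment. Of the genes that ATRA alone raised, SPHK1, a sphingosine kinase (33.9, 54.0 and 8.94), POU2F2 (114, 241 and 42.6) and WNT10B, a WNT ligand (125, 238 and 59.1), fell most. S1PR3 had 2665, 3921 and 3161 normalized counts in the treated libraries and 952, 939, 1106 and 986 in untreated ones. SPHK1 had 7.81, 6.52 and 12.5 against 36.3, 31.4, 34.9 and 33.2. In all 6 genes the treated and untreated libraries did not overlap, the log2 fold changes against untreated cells were 2.0, 1.69, 1.37, -1.86, -1.42 and -1.08 in the order named, and the differences from ATRA were 2.69, 2.48, 2.05, -2.51, -2.52 and -2.02 (adjusted p of at most 9.8e-08 from limma). They were chosen for this pattern, so these values describe it.

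The direction of change went with the GC content and the length of the genes. Among the 12003 protein-coding genes compared, the class (of 5 equal ones) with the lowest GC content in the longest transcript had a median log2 fold change of 0.31 and the class with the highest -0.46. Genes called lower made up 2.33% of the former and 39.0% of the latter, and genes called higher 23.3% and 5.62%. The gradient was seen in each treated library, where the medians against the untreated mean ran from 0.27 to 0.33 in the lowest class and from -0.48 to -0.40 in the highest. Untreated replicate 4 had a weaker gradient of the opposite sign, -0.07 to 0.14. By gene length the medians ran from -0.35 in the shortest class to 0.18 in the longest. Its part in the calls was measured by removing a trend on GC content from every library, chosen after the gradient was seen. With it removed, 3206 of 14280 genes were called, 1598 higher and 1608 lower. Only 2626 of these were among the 4233 called in the main fit, all in the same direction. Genes without a GC value were left out. Of the lists, NRF2 targets had 20 higher genes, chaperones 17 instead of 22 higher genes and metallothioneins 7 lower genes under that setting. Granule genes had 2 lower genes instead of 5 and the MYC network 6 instead of 9. Genes of the mitochondrial genome gave 7 higher and 0 lower of 33 (median 0.41), beside 13.9% higher and 15.1% lower over all genes. MT-ND4 led them in normalized counts (118386 to 191340, 0.69). It was not called under quantile normalization, under scaling to total reads or with a GC trend removed. The other higher ones were MT-ND4L, the tRNA genes MT-TL1 and MT-TT and, from untreated levels of 12.8 to 29.6, the tRNA genes MT-TI, MT-TQ and MT-TM. MT-CO1, MT-CO2, MT-CO3, MT-ATP6, MT-CYB, MT-ND1 and MT-ND2 were not called. Cytosolic ribosomal protein genes gave 0 higher and 3 lower of 82 (median -0.22), beside the same shares of all genes.

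**Figure D5:**
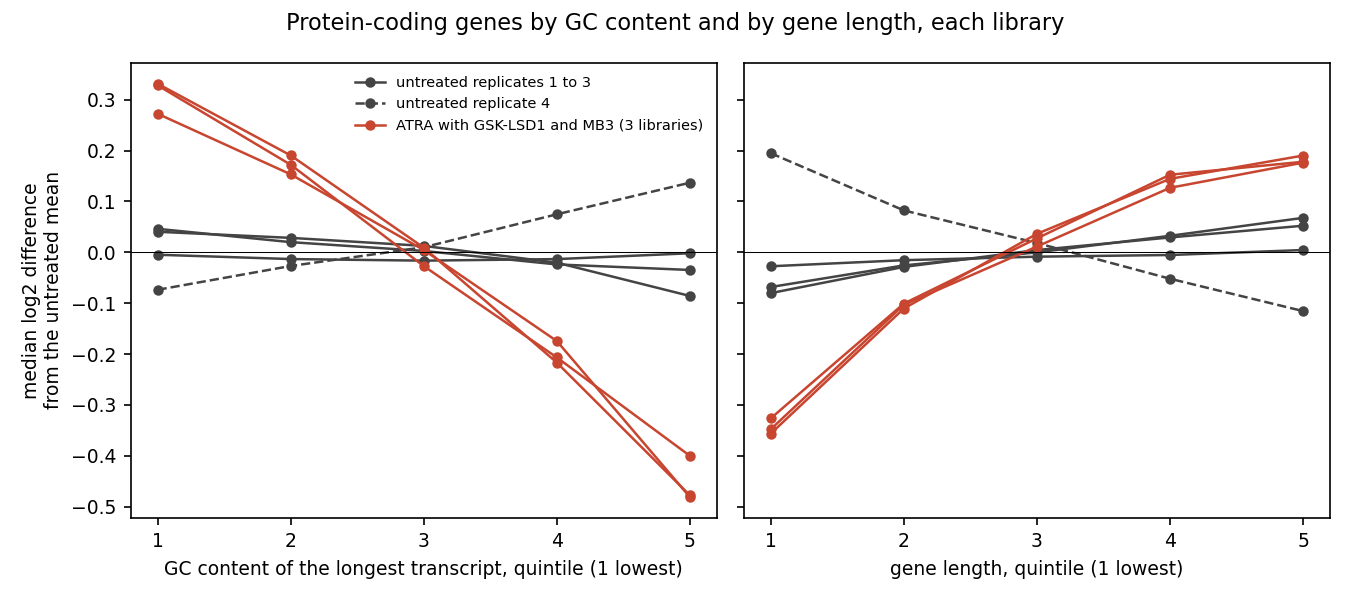
Median log2 difference of each library from the untreated mean (y axis) over protein-coding genes in 5 equal classes of transcript GC content (left) or gene length (right). The 3 treated libraries (red) fall with GC content and rise with gene length, untreated replicates 1 to 3 (dark, solid) stay near 0, and untreated replicate 4 (dashed) runs the other way.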

How the data were processed

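RNA-seq was read in 16 libraries of OCI-AML3 cells, of which 7 (3 with ATRA, GSK-LSD1 and MB3, 4 untreated) were compared here and 3 with ATRA alone were set beside them. Per the labels and the study's methods, the authors trimmed reads with cutadapt, aligned them with STAR, counted them per gene with featureCounts and normalized them with DESeq2, in Galaxy. No version, genome build, annotation release or strand setting is given in the sources used here, and the labels and the methods name different RNA and library kits. The deposited values are a signal: reads per gene divided by a size factor per library. All values came out as whole reads (100%, tolerance 0.01 reads) when multiplied back. Genes have versioned Ensembl IDs, and all 62700 had a symbol in the table given. GENCODE 29 matched 97.6% of the genes compared and gave positions, lengths and GC content. Promoters are those of RefSeq (GRCh38.p14).

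The genes whose mean in the 7 libraries reached 10 normalized counts were tested with limma 3.58.1 (R 4.3.3; trend, not robust) on log2(normalized count + 1), in a single fit that took in all 16 libraries, and p-values were adjusted over all 14631 genes by Benjamini-Hochberg. A gene was called at an adjusted p under 0.05 and a change above 1.5-fold. Fold changes are on the log2(normalized count + 1) scale, which understates the change of low genes. Intervals and lower bounds cover the error stated with them only, and lower bounds counting error only. Alternatives were edgeR 4.0.16 and DESeq2 1.42.0 on the recovered reads, other pseudocounts (0.5 and 5), filters, scalings and thresholds, a fit of the 7 libraries, a replicate block, each of the 7 libraries left out, and, chosen after the data were seen, each ATRA library left out and a GC trend removed from each library. The steps were tested on simulated counts.

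The genes named are the 10 largest rises and falls by fold whose groups did not overlap and whose higher group reached 50 normalized counts, 5 genes for which no library of the lower group had over 3 reads, the 5 largest rises and falls in normalized counts, up to 4 rises and 3 falls of each gene list, the targeted enzymes, the RARs, ITGAM and KIT, and 3 genes in each direction that ATRA alone moved the other way. BATF2, GCLM, TXNRD1, CHORDC1, LYZ, EDEM1 and the members given as not called were named after their values were seen. Some genes that the rule picks are not reported here. The comparison, the lists and the rules were chosen with earlier results of these data known.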

Additional observations from a re-analysis of the deposited data

Results flagged for a closer look

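Untreated replicate 4 lay far from the other 3 untreated libraries in 15 of the 178 genes named in the text, its gap to the nearest of them taking more of the group's range than Dixon's 95% limit allows. Chance gives about 1 such group in 20 for independent values, but genes of the same libraries are not independent, so the count is a description. CYP26B1 is counted on 1 read against 0, where any read passes the limit. In all 15 genes the outlying library was replicate 4. It was the highest library for MT1E (1405 normalized counts, the others 784 to 857), MT1G (1188, the others 802 to 836), FTL (32572, the others 23457 to 24041), SRGN (46955, the others 37217 to 37750), AZU1 (1988, the others 1573 to 1605) and TYROBP (728, the others 452 to 481). The same held for CDKN2C (833, the others 651 to 675), ID2 (877, the others 753 to 768), SLC1A5 (3889, the others 3344 to 3425) and CYP26B1 (1.11, the others 0).

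It was the lowest library for POU2F2 (78.7 normalized counts, the others 122 to 127), MDM2 (2472, the others 3863 to 4058), SKIL (896, the others 1160 to 1208), ADAMTS5 (157, the others 231 to 244) and ALDH1A3 (13.3, the others 23.1 to 25.1). Of these 15 genes, TYROBP and SLC1A5 lost their call when the library was left out, at log2 fold changes of -0.43 and -0.58.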

How the results depend on the processing

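Of 178 genes named in the text, 133 stayed on the same side of the limits in the same direction under every alternative that gave them a value. The setting that moved most of them was the removal of a GC trend. There 144 of 177 stayed, 25 lost their call, 1 gained one and 7 changed sign. The 4233 genes called became 8797 without a fold limit (4369 higher, 4428 lower) and 1546 at an adjusted p under 0.01 and more than 2-fold (787 higher, 759 lower). They were 3860 to 4395 with any treated or untreated library left out (1837 to 2140 higher, 2023 to 2276 lower), the lowest without untreated replicate 4. For the triple treatment against ATRA, 2831 genes became 1853 with a GC trend removed, 7193 without a fold limit and 738 under the stricter limits, and 2460 to 2958 with any treated or ATRA library left out (leaving out ATRA libraries was chosen after seeing the data). edgeR gave 4256 called genes and DESeq2 4116. Deviations of treated and untreated libraries with equal replicate numbers correlated at 0.0122, 0.0387 and 0.0574. The other groups were not compared in this way, so whether libraries were handled in pairs stays unknown. The fit with the replicate block called 3867 genes and moved KEAP1 to 0.014, as leaving out untreated replicate 4 did. Replicate number 4 exists only among untreated libraries, so the block takes that library out of the fold changes and is no separate check. Genes that were not called changed sign under some settings. Quantile normalization gave LYZ -0.065 and RARG 0.033, and scaling to total reads LYZ -0.11. With a GC trend removed ATF4 was at 0.069, CHAC1 at 0.28, HSF1 at 0.27, KEAP1 at 0.28, LYZ at -0.19, RARG at 0.26 and TRIB3 at 0.089. With single libraries left out CHAC1 ranged from -0.29 to 0.074, the latter without treated replicate 1, and KEAP1 reached 0.014. Where a cause is not plain from how a setting is made, the cause was not tested. Depth limits genes near 10 normalized counts, where a few reads decide a fold.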
